A study of Mus musculus with 24 samples.

Results

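Glycolysis breaks glucose down to pyruvate and lactate, and the pentose phosphate pathway branches off its first phosphorylated sugar. The genes described here are 36 mouse symbols that encode glucose carriers, the glycolytic enzymes, the enzymes that set fructose 2,6-bisphosphate, lactate dehydrogenases and monocarboxylate carriers, pyruvate dehydrogenase kinases and the pentose phosphate enzymes. They were chosen by name, as the genes whose symbol in the count table equals a listed symbol. Of 45237 genes in the table, 37 entries carried these 36 symbols, because Aldoa is listed under a second identifier. After a filter on low counts 34 of the members were tested, among 17097 genes tested in all.

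Spleen natural killer (NK) cells of wild-type (WT) C57BL/6J mice were isolated by flow cytometry, and their polyA RNA was sequenced in bulk as 24 libraries. Control mice were not treated and bore no tumor (4 libraries), and the other mice had received tumor cells by intravenous injection. RMA is a mouse T cell lymphoma line that does not directly stimulate NK cells, and RMA-KR is a directly stimulating derivative without B2m, which MHC class I needs, and with Rae1-beta, a ligand of the activating receptor NKG2D. NK cells were taken from RMA-bearing mice on day 2, day 4 and day 9 (3 libraries each) and from RMA-KR-bearing mice on day 2 (3 libraries), day 7 (5 libraries) and day 14 (3 libraries). Since the later days differ between the models, tumor and day cannot be told apart after day 2. The labels do not tie each library to a mouse. Separate mice are described for RMA day 9, RMA-KR day 14 and controls, with fewer control mice than control libraries, and not for the other groups. The p-values measure only the spread between these samples, part of which may be technical. Totals ran from 5138651 to 14863500 counts per library, with a median of 10489204, and levels are given as TMM-normalized CPM, that is counts scaled to a common library size.

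Resting NK cells draw little on glycolysis, and activation by cytokines or by contact with targets is known to raise glucose uptake and lactate release. Cells that prepare to divide also use the pentose phosphate pathway, which makes NADPH and the ribose of nucleotides. Several enzymes exist as isoenzymes encoded by separate genes, and which of them a cell uses sets how its glycolysis is controlled.

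The labelled cell type was checked first. All 15 NK cell marker genes were detected, with summed levels of 25484 to 46690 CPM per library, Gzma as the most abundant (mean 9982 CPM) and Ncr1, the gene of NKp46, at 2951 to 3679 CPM in the control libraries. Of these 15 genes 1 was called higher on RMA day 4, and 1 higher and 1 lower on RMA day 9. The 13 genes of the T cell and RMA lymphoma lineage summed to 394 to 748 CPM, led by Trbc1 at a mean of 286 CPM. Their sum was 577 to 748 CPM on RMA day 9 against 461 to 585 CPM in controls. Of this list, Cd3e, Cd4 and Cd8a stayed at or under 5.00, 2.05 and 1.38 CPM in every library. Thy1 and Trbc2 were called higher on RMA day 9 than on RMA day 2. The sort kept cells stained for NKp46 or NK1.1, in the same color, and removed cells stained for CD3, CD5 or T cell receptor. Summed markers of plasma cells (6 genes, led by Xbp1 at 236 CPM) stood at 169 to 441 CPM over all libraries, and at 283 to 321 CPM on RMA day 4 against 172 to 252 CPM in controls. Macrophage and monocyte markers (11 genes, led by Cd68 at 22.3 CPM, with 3 genes under 1 CPM in every library) stood at 8.74 to 18.7 CPM in control libraries, 29.3 to 32.1 CPM on RMA-KR day 2, 34.2 to 51.2 CPM on RMA day 9 and 39.6 to 80.2 CPM on RMA-KR day 14. Platelet markers (5 genes, led by Itga2b) summed to 1.85 to 3.38 CPM in control libraries and to 8.81 to 30.4 and 15.2 to 18.2 CPM on day 2 of RMA and RMA-KR and to 5.86 to 12.4 CPM on RMA day 9, while granulocyte markers (8 genes, led by Mpo) stayed at or under 12.4 CPM and red cell markers (7 genes, led by Alas2) at or under 3.83 CPM. No tested gene of these lists of other cells passed the test against control in any group, and their part in the results below was not tested.

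Some libraries stood apart from the rest of their groups. On principal components of all genes tested, libraries 1 and 2 of RMA day 2 lay at -105 and -153 on the second component, against -48.7 to 65.6 for the other 22 libraries. Library 3 of RMA-KR day 14 lay at -61.7 on the third component, where all but these 3 libraries were between -20.1 and 35.97, and it had the highest mitochondrial share of counts (1.71%, against 0.908% to 1.30% in the rest). The 12 immediate early genes, which are induced within minutes of cell handling or stimulation, summed to 1297 CPM in control 4 and to 1253, 1391 and 1277 CPM in RMA-KR day 7 libraries 3, 4 and 5, against 4369.96 to 9867 CPM in the other 20 libraries, and 1 of the 12 was called higher on RMA-KR day 14. These 4 libraries also had the most genes with a count, 24621 to 27820. Counts of member genes that passed the test are therefore given below with and without both sets of libraries, which were picked after the data had been seen.

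Levels per kilobase of the longest coding transcript, averaged over the 24 libraries, showed which isoenzyme dominated at each step. Lactate dehydrogenase was almost wholly Ldha, at 477 CPM per kb against 0.189 for Ldhb, which had no count in 19 libraries. Aldoa, the muscle-type aldolase, stood at 262 CPM per kb and Aldoc at 1.62. Phosphofructokinase, the committed step of glycolysis, was mostly the platelet form Pfkp (165 CPM per kb), with Pfkl at 39.6 and Pfkm at 3.56. Enolase was mostly Eno1 (132, with Eno3 at 7.55 and Eno2 at 0.0515 CPM per kb), and hexokinase mostly Hk1 (31.5, with Hk3 at 6.44 and Hk2 at 0.633 CPM per kb). Both glucose carriers were at like levels, Slc2a3 (GLUT3) at 47.2 and Slc2a1 (GLUT1) at 44.4 CPM per kb. In the pentose phosphate branch, Taldo1 (138 CPM per kb) and Tkt (109) were the most abundant, followed by Pgls (71.9), Pgd (52.6), G6pdx (42.8), Rpe (34.5) and Rpia (2.32). Pdk3 led the pyruvate dehydrogenase kinases at 34.7 CPM per kb, with Pdk2 at 13.2 and Pdk1 at 3.89, and Pfkfb3 led the fructose 2,6-bisphosphate enzymes at 8.56, with Pfkfb4 at 0.970 and Pfkfb2 at 0.860. The lactate carriers Slc16a1 (MCT1) and Slc16a3 (MCT4) stood at 7.32 and 1.93 CPM per kb.

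Several members share sequence with other annotated genes, so that reads could be split or lost in counting. Gapdh, the enzyme that makes 1,3-bisphosphoglycerate, shared 82.5% of its 50-base windows with 222 other annotated genes, and Pgk1 and Pgam1, the next enzymes of the pathway, shared 68.0% and 41.5%. These 3 genes of lower glycolysis were counted at means of only 35.5, 11.7 and 5.80 CPM, against 238 CPM for Tpi1 just upstream and 268 CPM for Eno1 just downstream, and their levels are uncertain. Eno1 shared 72.2% of its windows, Pkm 34.4%, Gpi1 25.3%, Pfkp 17.1%, Ldha 16.6%, Aldoa 13.5%, Taldo1 10.9% and Tpi1 7.51%, whereas Tkt, Pdk2, Pdk3 and Slc2a3 shared none. Annotated exons of other genes on the same strand covered 6.87% of the Pkm and 27.1% of the Pfkfb2 exon bases. On either strand they covered 18.0% of the exon bases of Pfkp, 12.3% of Gpi1 and 20.6% of Rpe, and the strand setting of the counting is not given in the sources used here. Fold changes of all genes listed with shared or overlapping sequence carry the same uncertainty.

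**Figure D1:**
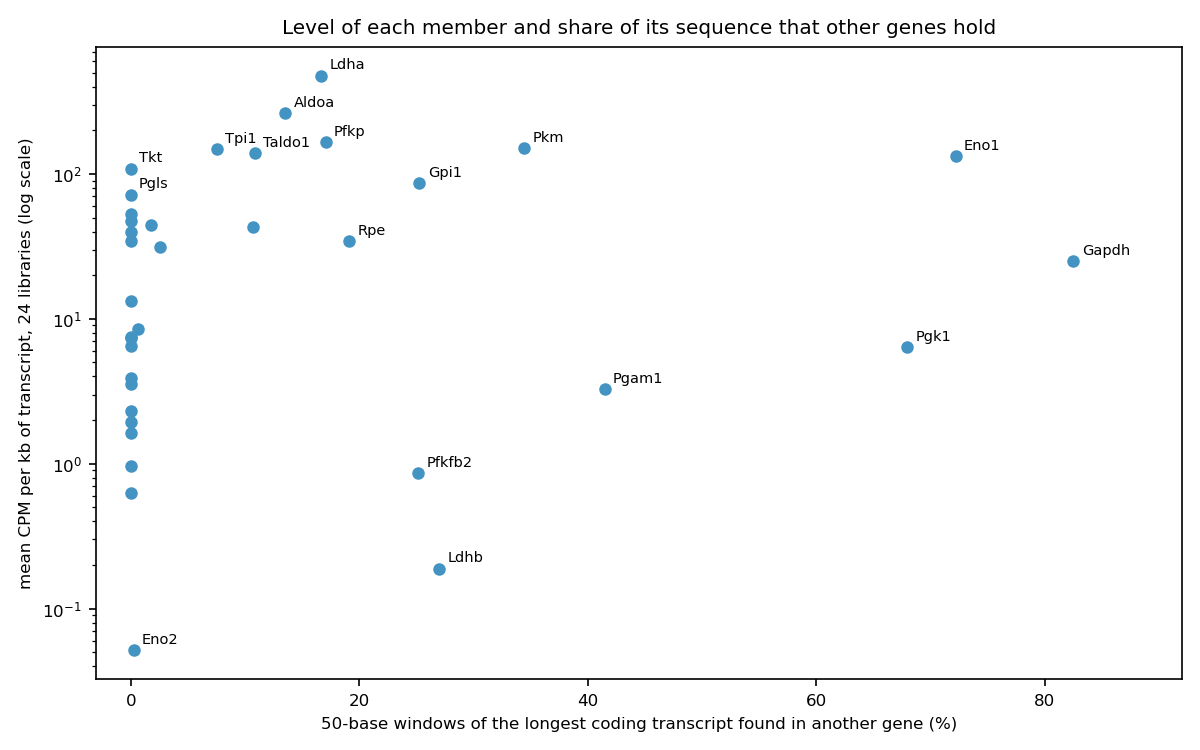
Each point is 1 of the 36 member symbols, with the percent of 50-base windows of its longest coding transcript that also occur in another annotated gene on the horizontal axis and its mean level over 24 libraries (CPM per kb, log scale) on the vertical axis. Gapdh, Pgk1 and Pgam1 combine shared sequence with low counted levels, while Tkt, Pdk2 and Pdk3 share none.

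NK cells from RMA-bearing mice were compared with control NK cells to ask how the pathway changes as this tumor grows. On RMA day 4, 4 of 34 members passed edgeR's quasi-likelihood test (adjusted p under 0.05), all higher (Pfkp, Pkm, Ldha and Tkt), while 2.35% of all genes tested passed (317 higher and 84 lower). On RMA day 9, 5 members passed, again all higher (Pfkp, Tpi1, Eno1, Pkm and Ldha), with 2.66% of all genes (366 higher and 89 lower). DESeq2 called 9 members on day 4 (2 lower, Pdk2 and Pfkfb4) and 9 on day 9 (1 lower, Pdk2), among 939 and 1034 genes in all. Fitting only the groups compared called 13 on day 4 (2 lower) and 8 on day 9 (1 lower), among 1246 and 811 genes in all. Member medians of the log2 fold change were 0.57 on day 4 and 0.42 on day 9, beside -0.29 and -0.18 over all genes tested, and 26 and 23 of 34 members were positive. The medians over all genes depend on the filter, and were -0.044 and -0.048 with at least 10 counts required of each library. In 17 members every RMA day 4 library lay above every control library, and for 10.2% of all genes tested the same held. In 13 members every RMA day 9 library did so, with 9.24% of all genes. Both comparisons share the same control libraries. Because RNA was measured in bulk, fewer cells of a kind and less RNA per cell cannot be told apart in any of these differences. Leaving out 1 library moved the day 9 count to 2 without control 1 (250 of all genes called), control 4 (249) or RMA day 9 library 1 (190). It moved to 3 without RMA day 9 library 2 (143), with Pkm and Ldha called each time, while 455 of all genes were called in the main fit. Without the 4 libraries low in immediate early genes the same 4 members passed on day 4 (265 of all genes), and 5 passed on day 9 (301 of all genes), where Tkt took the place of Tpi1. Without the 3 libraries apart on principal components, 6 passed on day 4 and 9 on day 9, including all of those named and, on day 9, Pdk2 as lower. Of all genes, 566 and 577 passed in that fit, against 401 and 455 in the main fit.

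On day 2 no member passed in either model. With edgeR's quasi-likelihood test RMA day 2 had 0 members called, beside 0% of all genes tested, with 2 members and 1204 of all genes at an unadjusted p under 0.05. DESeq2 called 0 members and 69 genes in all. RMA-KR day 2 had 0 members called, beside 0.0994% of all genes (0 higher and 17 lower), with 6 members and 1490 of all genes at an unadjusted p under 0.05, and DESeq2 called 0 members and 216 genes in all. The smallest adjusted p among the members was 0.704 for RMA and 0.251 for RMA-KR, and the member medians were -0.13 and -0.08.

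The same question was asked of RMA-KR. On RMA-KR day 7, 0 of 34 members passed edgeR's quasi-likelihood test, beside 0.0175% of all genes (3 higher and 0 lower), 5 members (Aldoa, Eno1, Pkm, Ldha and Tkt, all higher) and 1011 of all genes had an unadjusted p under 0.05. DESeq2 called 2 members (Pkm and Ldha) among 61 genes in all. On RMA-KR day 14 only Ldha passed, beside 1.22% of all genes (152 higher and 56 lower), and DESeq2 called 4 (Pfkp, Eno1, Pkm and Ldha) among 665 genes in all. The member medians were 0.30 and 0.22, against 0.01 and -0.18 over all genes, with 28 and 24 of 34 members positive. Groups did not overlap for 4 higher members on day 7 (Aldoa, Eno1, Pkm and Ldha, with 1.33% of all genes) and for 5 higher members on day 14 (Eno1, Pkm, Ldha, Slc16a3 and Tkt, with 5.88% of all genes). Leaving out either set of libraries that stood apart gave 0 members on day 7 and 1 on day 14. Of all genes, 0 passed on day 7 and 103 on day 14 without the libraries low in immediate early genes. Without those apart on principal components 6 and 220 did.

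**Figure D2:**
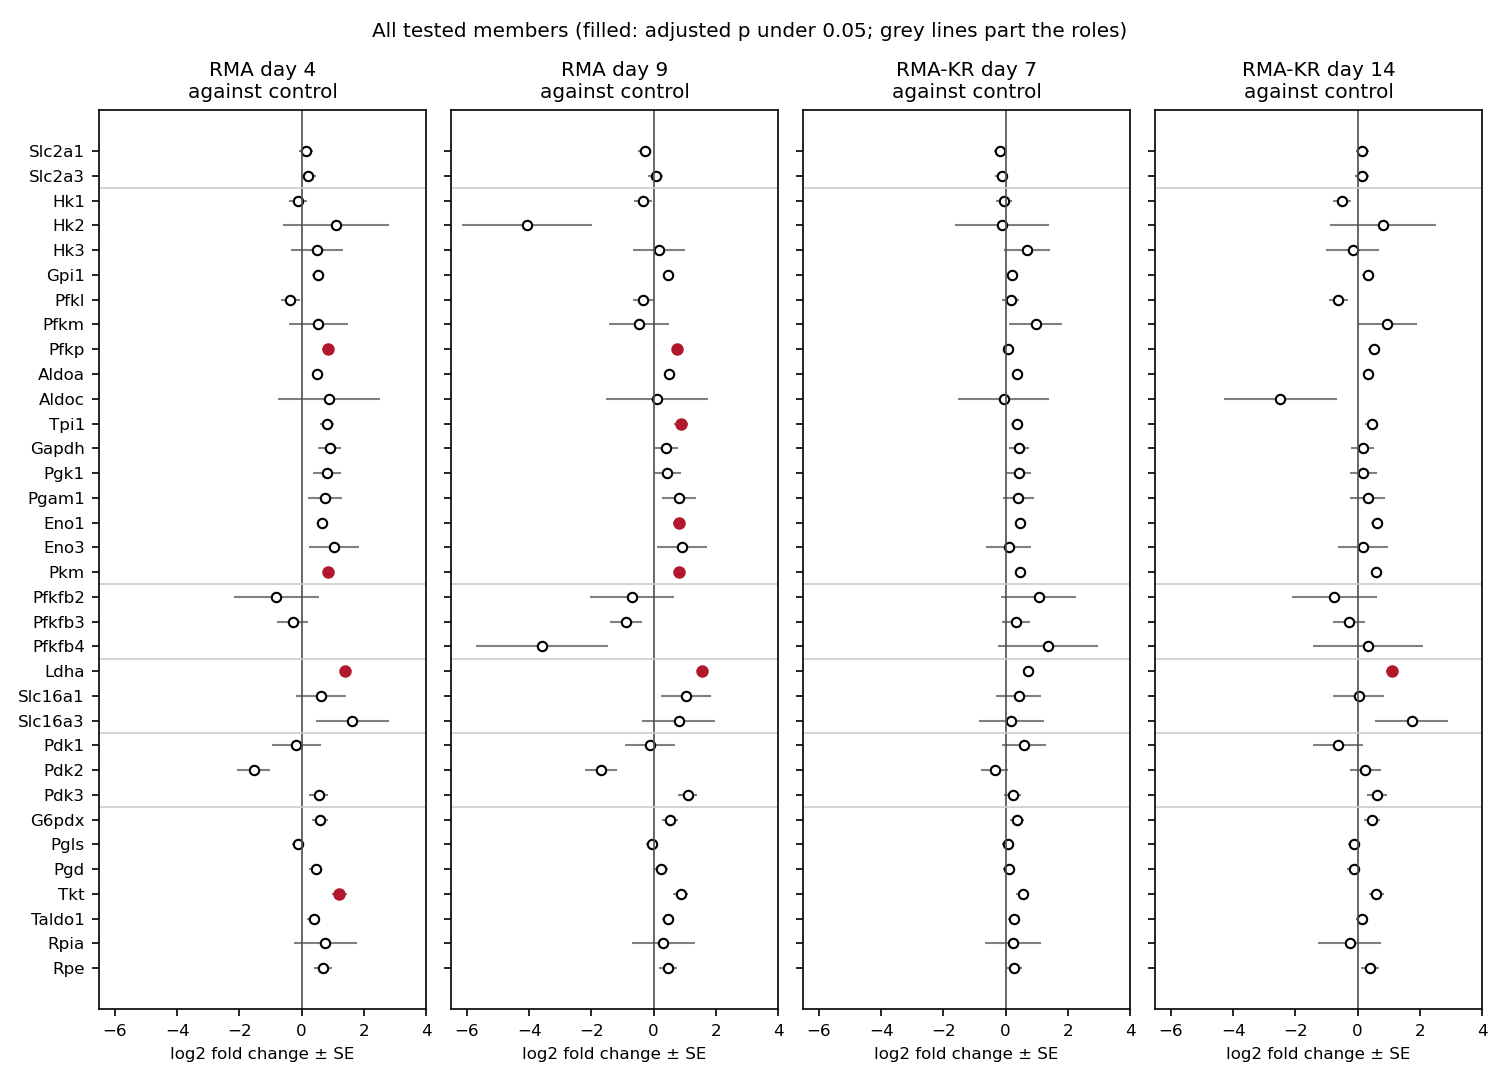
Log2 fold changes against control of the 34 tested members (1 line each, ordered and parted by role with grey lines) on RMA day 4, RMA day 9, RMA-KR day 7 and RMA-KR day 14, with bars of 1 standard error, and filled red points for an adjusted p under 0.05. Pfkfb4 is not drawn for RMA day 4, where all its libraries are at 0, and Ldha has a filled point in 3 of the 4 panels.

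Glucose enters NK cells through facilitative carriers. Slc2a3, the high-affinity carrier GLUT3, was measured at 126, 222, 202 and 157 CPM in the control libraries, at 273, 116 and 197 CPM on RMA day 2, at 213, 209.5 and 196 CPM on day 4 and at 172, 146 and 239 CPM on day 9. RMA-KR libraries gave Slc2a3 levels of 246, 166 and 205 CPM on day 2, 163, 159.9, 186, 164 and 135 CPM on day 7 and 211, 191 and 185 CPM on day 14. All 6 tumor groups overlapped the controls, and the log2 fold change was 0.07 on RMA day 9 (95% interval -0.41 to 0.55, adjusted p = 0.947) and 0.14 on RMA-KR day 14 (-0.34 to 0.62, adjusted p = 0.841). Slc2a1, the basal carrier GLUT1, ranged over 89.3 to 203 CPM and was called in none of the 10 comparisons, with a log2 fold change of 0.14 (95% interval -0.31 to 0.59) on RMA day 4. Nor was any hexokinase called in edgeR's main fit, the enzymes that trap glucose by phosphorylation: Hk1 ranged over 73.7 to 203 CPM, Hk3 over 0 to 59.4 CPM and Hk2 over 0 to 12.6 CPM with 5 libraries at 0. DESeq2 without its fold change prior called Hk2 lower on RMA day 9 than on RMA day 2. Slc2a1 on RMA day 2 lay wholly below the controls. Hk2 on RMA day 9 did so only at the count floor, where its highest library and the lowest control each had 5 counts (0.465 and 0.482 CPM).

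The upper steps of glycolysis, from glucose 6-phosphate to the triose phosphates, came next. Pfkp (ENSMUSG00000021196, chr13:6579768-6648777 on GRCm38) was measured at 455, 647, 468 and 495 CPM in the controls, 753, 563 and 592 CPM on RMA day 2, 801, 952 and 1011 CPM on RMA day 4 and 985, 794 and 847 CPM on RMA day 9. All 6 libraries of RMA day 4 and day 9 exceeded the highest control, while day 2 overlapped it. Pfkp rose 1.78-fold on day 4 (log2 fold change 0.84, SE 0.17, edgeR adjusted p = 0.00878) and 1.70-fold on day 9 (0.76, SE 0.17, adjusted p = 0.0157). Without RMA day 4 library 3 the day 4 call was lost (adjusted p 0.0100 to 0.0623 over the 7 libraries left out in turn), and the day 9 call was lost without control 1, control 3, control 4 or RMA day 9 library 1 (0.0127 to 0.109). In RMA-KR-bearing mice Pfkp stood at 589.9, 761 and 781 CPM on day 2, 578, 715, 504, 445 and 483 CPM on day 7 and 854, 777 and 599 CPM on day 14. All 3 of these groups overlapped the controls, with a log2 fold change of 0.53 on day 14 (SE 0.17, adjusted p = 0.179). The share of Pfkp among the 3 phosphofructokinase genes, per length, was 69.6% to 75.8% in control libraries. It was 76.1% to 87.9%, 83.0% to 87.0% and 82.7% to 86.8% on RMA days 2, 4 and 9, above the controls each time, and 70.8% to 82.2%, 67.2% to 80.3% and 83.4% to 85.8% on RMA-KR days 2, 7 and 14, above them only on day 14. Pfkl, the liver form, was at 172, 182, 143 and 166 CPM in controls, 132, 141 and 119 CPM on RMA day 9 and 134, 107 and 81.9 CPM on RMA-KR day 14. In both of these groups every library was lower than every control but the test was not passed (adjusted p = 0.707 and 0.357). Pfkm stayed at 0 to 24.2 CPM.

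Gpi1 (ENSMUSG00000036427, chr7:34201330-34230336), which turns glucose 6-phosphate into fructose 6-phosphate, was measured at 247, 237, 175 and 234 CPM in controls, 156, 158 and 216 CPM on RMA day 2, 335, 321 and 309 CPM on day 4 and 279, 296 and 359 CPM on day 9. Day 4 and day 9 libraries were all above the controls, yet the adjusted p against control was 0.197 and 0.246. With RMA-KR the level was 151, 217 and 139 CPM on day 2, 185, 249, 299, 257 and 302 CPM on day 7 and 341, 284 and 230.1 CPM on day 14, overlapping the controls each time. Aldoa (ENSMUSG00000030695, chr7:126795234-126800751), which splits fructose 1,6-bisphosphate, was at 286, 342, 394 and 341 CPM in controls, 206, 397 and 300.2 CPM on RMA day 2, 501, 502 and 449 CPM on day 4 and 522, 446 and 484 CPM on day 9. Again every day 4 and day 9 library exceeded the controls without a call against them (adjusted p = 0.116 and 0.107). RMA-KR gave Aldoa levels of 312, 375 and 375 CPM on day 2, 419, 428, 473, 433 and 470.2 CPM on day 7 and 471, 435 and 390.3 CPM on day 14, of which only day 7 lay wholly above the controls (adjusted p = 0.713). The second entry of Aldoa, 104 counts over all libraries, and Aldoc, at 0 to 14.8 CPM, were both low.

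Tpi1 (ENSMUSG00000023456, chr6:124810586-124814296), the triose phosphate isomerase, was measured at 120.3, 219.5, 222 and 182 CPM in controls, 146, 234 and 176 CPM on RMA day 2, 322, 359 and 302 CPM on day 4 and 348, 405 and 279 CPM on day 9. Every library of day 4 and day 9 lay above the controls, and day 2 overlapped them. Tpi1 rose 1.85-fold on day 9 (log2 fold change 0.89, SE 0.22, edgeR adjusted p = 0.0293), and on day 4, at 0.82 (SE 0.22), it missed the threshold (adjusted p = 0.0540). The day 9 call was lost without control 1, control 4 or RMA day 9 libraries 1 or 2 (adjusted p 0.0154 to 0.211 over the libraries left out in turn). RMA-KR libraries gave 167, 122 and 143 CPM on day 2, 206, 217, 280.2, 256 and 249 CPM on day 7 and 292, 307 and 163 CPM on day 14, where library 3, which also stood apart on principal components, was within the controls and the other libraries were above them.

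The lower steps of glycolysis yield ATP and pyruvate. Gapdh, with the caution on its shared sequence, was at 27.7, 28.5, 31.7 and 31.6 CPM in controls and at 51.4, 59.6 and 56.3 CPM on RMA day 4, each library above the controls, with a log2 fold change of 0.90 (SE 0.36) that did not pass (adjusted p = 0.252). RMA day 9, at 32.7 to 44.0 CPM, also lay above the controls (adjusted p = 0.701), and RMA-KR day 2, at 11.6 to 19.3 CPM, lay below them (log2 fold change -0.999, SE 0.38, adjusted p = 0.471). Its RMA-KR day 7 libraries split, at 19.6, 17.1, 59.0, 44.1 and 63.4 CPM, with the last 3 being those low in immediate early genes. Pgk1 ranged over 6.14 to 19.96 CPM and Pgam1 over 3.28 to 8.37 CPM, with no call in any comparison. Pgk1 on RMA day 4 (15.6 to 18.7 CPM) and Pgam1 on RMA day 4 and day 9 (5.73 to 8.04 and 6.02 to 8.37 CPM) lay above the controls (8.50 to 11.3 and 3.28 to 5.18 CPM). Eno1 (ENSMUSG00000063524, chr4:150236721-150248879), an enolase with much shared sequence, was measured at 167, 221, 219 and 205 CPM in controls, 151, 197 and 165 CPM on RMA day 2, 259, 357 and 352 CPM on day 4 and 406, 377 and 283 CPM on day 9. All day 4 and day 9 libraries were above the controls. Eno1 rose 1.75-fold on day 9 (log2 fold change 0.81, SE 0.19, edgeR adjusted p = 0.0176) and missed the threshold on day 4 (0.67, SE 0.19, adjusted p = 0.0611). Leaving out control 1, control 4 or RMA day 9 libraries 1 or 2 ended the day 9 call (adjusted p 0.00768 to 0.124 over the libraries left out in turn), and leaving out RMA day 4 library 1 made day 4 pass (0.0463 to 0.290). On RMA-KR days 2, 7 and 14 Eno1 stood at 222, 267 and 253 CPM, 312, 371, 249.7, 229 and 241 CPM and 375, 308 and 250.3 CPM, all above the highest control, with adjusted p of 0.733, 0.698 and 0.132. Eno3, the muscle form, ranged over 0 to 25.0 CPM without a call, with only RMA day 4 above the controls, and Eno2, with 30 counts in all, was not tested.

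Pkm (ENSMUSG00000032294, chr9:59656368-59679375), the pyruvate kinase that makes pyruvate and ATP, was measured at 248, 292, 289 and 271 CPM in the controls, 222, 354 and 275 CPM on RMA day 2, 429.9, 549 and 515 CPM on day 4 and 536, 534 and 396 CPM on day 9. Control libraries were tightly grouped, and every library of day 4 and day 9 stood above them. The rise was 1.81-fold on day 4 (log2 fold change 0.86, SE 0.16, edgeR adjusted p = 0.00482) and 1.78-fold on day 9 (0.83, SE 0.16, adjusted p = 0.00531), and both calls held when any 1 library was left out. RMA-KR libraries gave 235, 236 and 308 CPM on day 2, 374, 404, 402, 321 and 415 CPM on day 7 and 375, 475 and 387 CPM on day 14. All 5 libraries of day 7 and all 3 of day 14 were above the controls, with log2 fold changes (± SE, here and below) of 0.48 ± 0.15 (adjusted p = 0.538) and 0.58 ± 0.16 (adjusted p = 0.0854), which did not pass.

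Ldha (ENSMUSG00000063229, chr7:46841475-46855627), which turns pyruvate into lactate and restores NAD+, had the largest fold change of the members called. Control libraries had 457, 482, 526 and 544 CPM, RMA day 2 libraries 361, 499 and 465 CPM, RMA day 4 libraries 1234, 1450.1 and 1301 CPM and RMA day 9 libraries 1844, 1643 and 975 CPM. The lowest day 4 or day 9 library, RMA day 9 library 3, stood well above the highest control, and day 2 overlapped the controls. Ldha rose 2.65-fold on RMA day 4 (log2 fold change 1.40, SE 0.18, edgeR adjusted p = 0.000176) and 2.96-fold on RMA day 9 (1.57, SE 0.18, adjusted p = 0.000134). In RMA-KR-bearing mice it was at 490.2, 553 and 577 CPM on day 2, 705, 751, 932, 732 and 996 CPM on day 7 and 1049.9, 1312 and 884 CPM on day 14. All libraries of day 7 and day 14 exceeded the highest control. The day 14 rise was 2.15-fold (1.11, SE 0.18, adjusted p = 0.00225), and day 7, at 0.71 (SE 0.16), did not pass with edgeR (adjusted p = 0.357). Every call of Ldha against control held when any 1 library was left out.

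**Figure D3:**
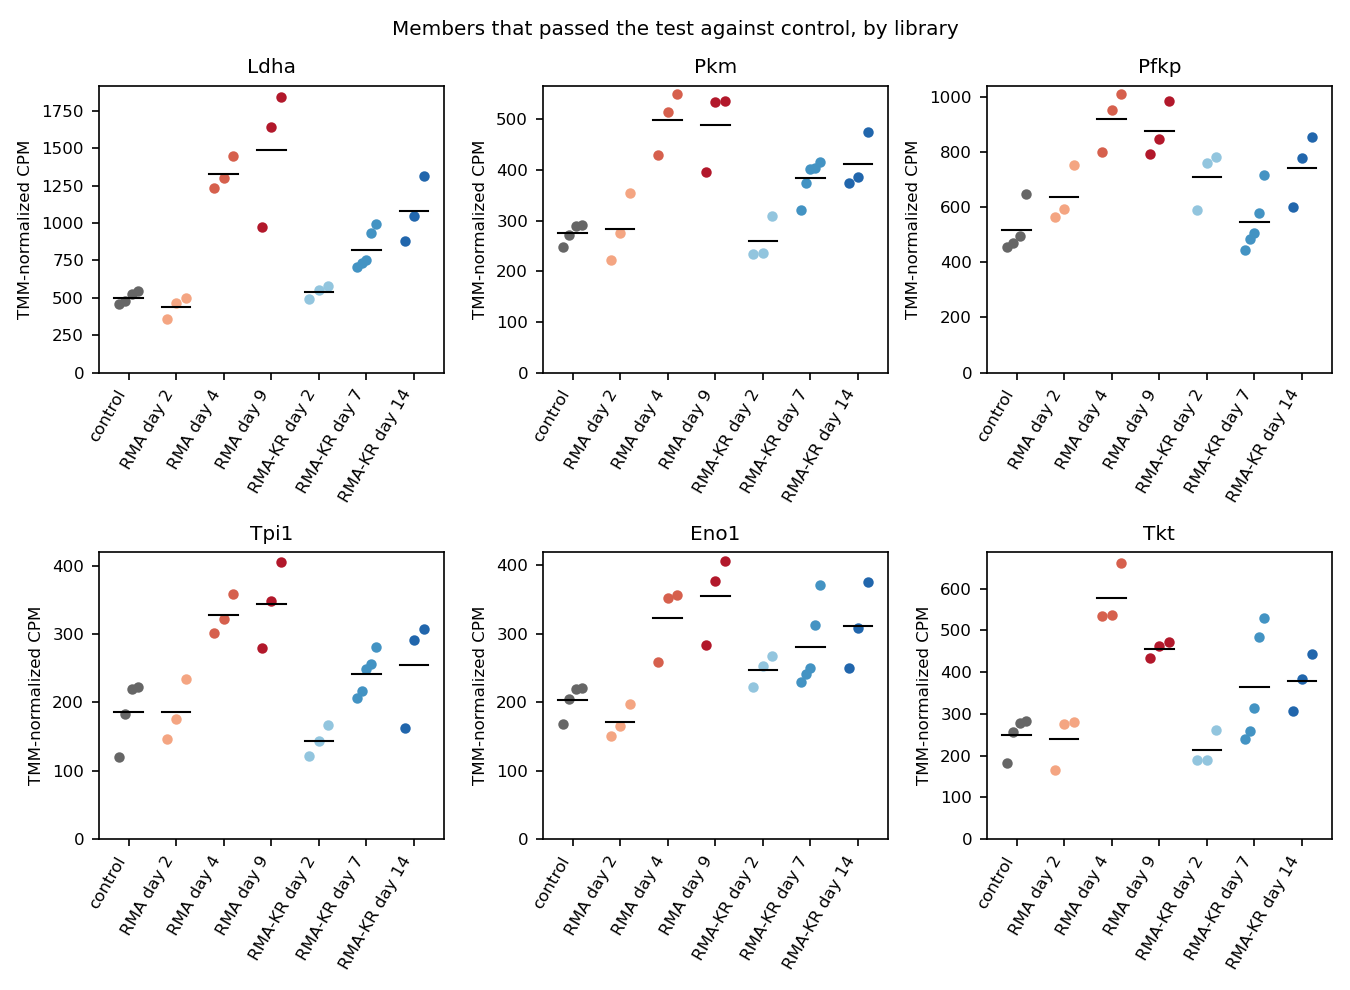
Levels of Ldha, Pkm, Pfkp, Tpi1, Eno1 and Tkt (1 panel each, TMM-normalized CPM) in the 24 libraries of the 7 groups, with 1 point per library and a horizontal line at each group mean. Every RMA day 4 and day 9 library lies above every control library in all 6 panels, whereas RMA-KR day 7 and day 14 do so for Ldha, Pkm and Eno1.

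The other genes of lactate metabolism were low. Slc16a3, the lactate exporter MCT4, was at 2.40, 6.46, 4.32 and 5.71 CPM in controls, 13.3, 16.5 and 14.4 CPM on RMA day 4, 3.96, 5.86 and 15.1 CPM on RMA day 9 and 23.1, 14.4 and 10.02 CPM on RMA-KR day 14. Day 4 and RMA-KR day 14 lay above the controls, with adjusted p of 0.499 and 0.507. RMA-KR day 2 did so too, at 7.66 to 12.4 CPM (adjusted p = 0.904). Slc16a1 (MCT1) varied widely, over 0.306 to 66.8 CPM, and was not called, and Ldhb, with 58 counts in all, was not tested.

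Promoters of 3 members, Pfkp, Pkm and Ldha, are shown because these passed against control on both RMA day 4 and RMA day 9. They come from RefSeq, build GRCm38.p6, and span 250 bases before to 50 bases after the start, at chr13:6648722-6649021 (minus strand), chr9:59656326-59656625 (plus strand) and chr7:46845554-46845853 (plus strand), read 5′ to 3′ along the gene. Capitals mark the E-box CACGTG, read by MYC with MAX, and the hypoxia core ACGTG or GCGTG, on either strand (CACGTG holds ACGTG on both strands).
Pfkp: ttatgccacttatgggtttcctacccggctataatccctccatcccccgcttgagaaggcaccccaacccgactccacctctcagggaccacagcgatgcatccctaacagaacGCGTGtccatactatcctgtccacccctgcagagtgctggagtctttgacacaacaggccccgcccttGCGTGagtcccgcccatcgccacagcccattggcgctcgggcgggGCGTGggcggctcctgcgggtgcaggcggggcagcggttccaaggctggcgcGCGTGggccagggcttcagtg
Pkm: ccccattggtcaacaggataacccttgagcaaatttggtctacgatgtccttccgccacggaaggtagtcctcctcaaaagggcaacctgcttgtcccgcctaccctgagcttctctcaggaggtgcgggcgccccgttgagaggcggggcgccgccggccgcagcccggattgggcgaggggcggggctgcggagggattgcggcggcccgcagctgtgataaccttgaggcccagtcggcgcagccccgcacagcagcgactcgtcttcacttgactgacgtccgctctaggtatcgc
Ldha: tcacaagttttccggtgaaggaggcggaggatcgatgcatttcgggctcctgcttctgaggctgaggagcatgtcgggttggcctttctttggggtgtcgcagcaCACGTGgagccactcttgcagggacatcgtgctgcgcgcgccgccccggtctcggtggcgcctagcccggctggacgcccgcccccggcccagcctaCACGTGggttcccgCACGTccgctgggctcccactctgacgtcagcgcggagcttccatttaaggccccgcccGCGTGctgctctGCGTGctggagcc

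The Ldha promoter shown, the first of 2 listed, held 2 E-boxes and 7 hypoxia cores, of which 3 lay outside the E-boxes, and the second held 0 E-boxes and 2 cores. Pfkp held 0 E-boxes and 4 hypoxia cores, and the Pkm promoter shown, also the first of 2, held neither motif, while the second Pkm promoter held 2 cores. RefSeq promoters matched 35 of the 36 members by symbol, all but Slc2a3. An E-box was found in 6 of these 35 genes, or 11.5% of their 52 promoters against 7.15% of all 32851 promoters, and a hypoxia core in 31 of 35, or 78.8% of member promoters against 43.8% of all. Outside E-boxes the core was found in 30 of the 35 genes, or 76.9% of member promoters against 40.4% of all. For 42 of the 52 member promoters the start lay within an annotated transcript on the same strand. The share over all promoters was not matched to the members for base content or expression. A match describes these letters only and says nothing of binding.

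Fructose 2,6-bisphosphate, a strong activator of phosphofructokinase, is made by the Pfkfb enzymes. Pfkfb3, the most abundant of them, was measured at 46.4, 66.6, 33.3 and 45.7 CPM in controls, 37.4, 50.8 and 42.3 CPM on RMA day 2, 31.8, 37.7 and 48.4 CPM on day 4 and 29.3, 21.4 and 27.1 CPM on day 9. Only day 9 lay wholly below the controls, with a log2 fold change of -0.89 (95% interval -1.95 to 0.17, adjusted p = 0.452). RMA-KR libraries had 18.4, 1.53 and 26.0 CPM on day 2, 68.9, 27.1, 59.6, 63.5 and 83.7 CPM on day 7 and 43.8, 44.1 and 31.0 CPM on day 14. Here day 2 lay below the controls, at a log2 fold change of -1.65 ± 0.53 (adjusted p = 0.333), and the later days overlapped them. Pfkfb4 was at 0 in all 3 RMA day 4 libraries, which at a floor of 3 counts per library is at least 8.64-fold lower than the control mean of 2.60 CPM. That mean rests largely on control 2 (2.40, 5.79, 0.421 and 1.79 CPM in the controls), and Pfkfb4 did not pass the test with the filter used here (adjusted p = 0.197). With Pfkfb4 at this bound the member median on RMA day 4 was 0.57, as with its fitted value. Pfkfb2 ranged over 0 to 16.5 CPM.

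Pyruvate dehydrogenase kinases keep pyruvate out of the mitochondrial cycle by turning off pyruvate dehydrogenase. Pdk3, the most abundant, was measured at 39.9, 74.2, 54.8 and 49.5 CPM in controls, 45.1, 89.1 and 66.4 CPM on RMA day 2, 71.2, 99.0 and 69.1 CPM on day 4 and 125, 109.97 and 116 CPM on day 9. All day 9 libraries exceeded the controls, at a log2 fold change of 1.099 (SE 0.31) that narrowly missed the threshold (adjusted p = 0.0588). Pdk3 was called higher on day 9 by 5 of the alternative fits, among them DESeq2. With RMA-KR Pdk3 stood at 62.4, 39.9 and 74.1 CPM on day 2, 38.5, 67.1, 104, 71.2 and 40.7 CPM on day 7 and 94.1, 92.5 and 66.5 CPM on day 14, each overlapping the controls. Pdk2 was at 45.1, 46.2, 20.3 and 48.7 CPM in controls, 9.79, 18.8 and 12.6 CPM on RMA day 4, 8.86, 15.6 and 12.8 CPM on RMA day 9 and 53.1, 19.8 and 70.2 CPM on RMA-KR day 14. The RMA libraries of both days lay below every control, at log2 fold changes of -1.54 ± 0.52 (adjusted p = 0.146) and -1.69 ± 0.52 (adjusted p = 0.0949), and those of RMA-KR day 14 overlapped them. Pdk2 was called lower on day 4 by 3 of the alternative fits and on day 9 by 5, among them DESeq2 on both days. Per length, Pdk3 made up 44.5% to 63.9% of the 3 kinase transcripts in controls. It made up 57.6% to 83.9%, 78.0% to 81.9% and 83.3% to 87.5% on RMA days 2, 4 and 9, and 47.7% to 64.5%, 39.8% to 71.0% and 50.1% to 77.4% on RMA-KR days 2, 7 and 14. Pdk1 varied over 0.482 to 60.8 CPM without a call in the main fit.

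Tkt (ENSMUSG00000021957, chr14:30548359-30574720), the transketolase that links pentose phosphates back to glycolysis, was the only pentose phosphate gene called against control in the main fit. It was measured at 181, 277, 282 and 256 CPM in controls, 165, 275 and 279.99 CPM on RMA day 2, 535, 661 and 538 CPM on day 4 and 472, 461 and 434 CPM on day 9. Day 4 and day 9 libraries all lay far above the controls, with day 4 the higher of these groups in every library. Tkt rose 2.32-fold on day 4 (log2 fold change 1.21, SE 0.25, edgeR adjusted p = 0.00772), which held when any 1 library was left out, and missed the threshold on day 9 (0.87, SE 0.25, adjusted p = 0.0583). RMA-KR libraries gave 188, 261 and 188 CPM on day 2, 240.2, 313, 485, 258 and 528 CPM on day 7 and 383, 444 and 307 CPM on day 14. Day 14 lay above the controls (log2 fold change 0.60, adjusted p = 0.310). On day 7 libraries 3 and 5 were the highest, while library 4, low in immediate early genes as they were, stood at 258 CPM. Taldo1 (ENSMUSG00000025503, chr7:141392199-141402968), the transaldolase, was at 133, 204, 175 and 172 CPM in controls, 129, 149 and 119 CPM on RMA day 2, 237, 209 and 226 CPM on day 4 and 262, 207 and 242 CPM on day 9, the later days being above all controls (adjusted p = 0.331 and 0.286). In RMA-KR-bearing mice Taldo1 was at 149, 204 and 121 CPM on day 2, 199, 244, 189, 202 and 189.9 CPM on day 7 and 196, 242 and 128 CPM on day 14, overlapping the controls.

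The oxidative enzymes of the branch make NADPH. G6pdx, its entry enzyme, ranged over 52.5 to 171 CPM, Pgls over 44.7 to 110.2 CPM and Pgd over 49.0 to 175 CPM, and none was called in any of the 10 comparisons. On RMA day 4 G6pdx and Pgd libraries were all above the controls, at log2 fold changes of 0.59 (adjusted p = 0.289) and 0.46 (adjusted p = 0.307), as were those of G6pdx on RMA day 9 (adjusted p = 0.367). Pgls lay below the controls on day 2 of both models (adjusted p = 0.738 and 0.251). Rpe (45.9 to 145 CPM) and Rpia (0 to 7.85 CPM), which interconvert the pentose phosphates, were not called in the main fit either. Rpe lay above the controls on RMA day 4 only, where fitting only the groups compared called it higher. By role, the median log2 fold change on RMA day 4 was 0.78 for 16 glycolysis genes (14 positive), 1.40 for 3 lactate genes, 0.59 for 7 pentose phosphate genes (6 positive), 0.18 for the glucose carriers, -0.16 for 3 kinases and -0.81 for 3 fructose 2,6-bisphosphate enzymes (0 positive). On RMA day 9 the medians were 0.46 (12 positive), 1.03, 0.47 (6 positive), -0.11, -0.10 and -0.89 (0 positive).

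Time within each model was tested next, from day 2 to the last day. Between RMA day 2 and day 9, 7 of 34 members passed edgeR's quasi-likelihood test, all higher on day 9, beside 2.87% of all genes (372 higher and 119 lower). Ldha rose 3.37-fold (log2 fold change 1.75, SE 0.20, adjusted p = 8.43e-05) and Eno1 2.08-fold (1.05, SE 0.20, adjusted p = 0.00657). Smaller rises were called for Gpi1 (0.82, SE 0.21, adjusted p = 0.0347), Aldoa (0.69, SE 0.17, adjusted p = 0.0340) and Tpi1 (0.89, SE 0.24, adjusted p = 0.0469). Pkm (0.78, SE 0.18, adjusted p = 0.0171) and Taldo1 (0.84, SE 0.21, adjusted p = 0.0347) also rose. With 1 library left out in each of 6 fits, the call held in 6 fits for Ldha, 4 for Eno1, 3 for Pkm, 2 for Tpi1, 1 each for Gpi1 and Aldoa and 0 for Taldo1 (adjusted p 0.0540 to 0.146). Other lists moved in the same comparison: 11 of 32 cell cycle genes and 3 of 12 interferon-induced genes were called higher on day 9. Eomes of the NK cell markers and Fosb of the immediate early genes were called lower, and of 10 tested genes of the T cell and RMA lymphoma lineage Thy1 and Trbc2 were called higher. Thy1 stood at 9.87 to 20.001 CPM on day 2 and 45.6 to 59.7 CPM on day 9 (11.7 to 25.0 CPM in controls), Trbc2 at 75.1 to 90.1 and 113 to 170.2 CPM (89.6 to 103 CPM in controls), and the whole lineage list summed to 394 to 581.9 and 577 to 748 CPM. Their part in the rise of the members was not tested. Leaving out 1 library in turn moved all genes called from 491 to between 92 and 653, so such shifts are not particular to the members. The count of members also rests on few libraries. It was 1 without RMA day 2 library 1 (101 of all genes) or RMA day 9 library 2 (92). It was 2 without RMA day 9 library 1 (133) and 4 without RMA day 9 library 3, where all genes called rose. It was 5 without RMA day 2 library 2 (283) or 3 (653), with Ldha called each time. Without the 3 libraries apart on principal components, which leaves a lone RMA day 2 library, it was 1 (Ldha), and without the 4 libraries low in immediate early genes it was 4. Between RMA-KR day 2 and day 14 only Ldha passed (log2 fold change 1.00, SE 0.20, adjusted p = 0.0269), beside 0.392% of all genes, and this call was lost without RMA-KR day 2 library 1 or 2 or RMA-KR day 14 library 2 (adjusted p 0.0167 to 0.156). Without the 4 libraries low in immediate early genes Ldha alone passed (71 genes in all), and without the 3 libraries apart on principal components Tpi1 and Ldha did (129 genes in all). When only the groups compared were fitted, with fewer samples to estimate the spread, 0 members passed in either of these comparisons over time. Of all genes, 1 passed for RMA (491 in the main fit) and 2 for RMA-KR (67 in the main fit), so this is not particular to the members.

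The models were then compared with each other. On day 2, RMA against RMA-KR had 0 members called by edgeR's quasi-likelihood test, beside 0.339% of all genes, with 6 members and 2101 of all genes at an unadjusted p under 0.05. DESeq2 called 0 members and 393 genes in all. Gapdh had the smallest adjusted p (0.290), at a log2 difference of 1.12. At the last days, RMA day 9 against RMA-KR day 14, again 0 members were called with edgeR, beside 0% of all genes, with 3 members (Hk2, Ldha and Pdk2) and 1249 of all genes at an unadjusted p under 0.05. DESeq2 called 0 members and 46 genes in all. Ldha had a log2 difference of 0.46 (95% interval 0.05 to 0.86, adjusted p = 0.655), and Pdk2 one of -1.94 (-3.08 to -0.80, adjusted p = 0.655), neither being called. For Pdk2 every RMA day 9 library lay below every RMA-KR day 14 library. For the other members called on RMA day 9 the log2 differences were 0.25 for Pkm (-0.12 to 0.61), 0.24 for Pfkp (-0.15 to 0.62), 0.44 for Tpi1 (-0.06 to 0.93) and 0.19 for Eno1 (-0.23 to 0.61). All 4 of these intervals span 0, and a gene called in RMA alone was therefore not shown to differ between the models.

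Genes around the pathway were read from lists of neighbours. Among 22 regulators of glycolysis, Myc, which activates many glycolytic genes, rose on RMA day 4 by 1.20 ± 0.22 (adjusted p = 0.00415), on RMA day 9 by 0.84 ± 0.22 (adjusted p = 0.0387) and on RMA-KR day 14 by 1.13 ± 0.22 (adjusted p = 0.0102) on the log2 scale. Its levels were 57.5 to 91.5 CPM in controls against 144 to 178, 98.0 to 156 and 153 to 161 CPM in these groups. Txnip, an arrestin-like protein that removes glucose carriers from the surface, changed the other way, with log2 fold changes of -1.75 ± 0.34 (adjusted p = 0.00573), -1.41 ± 0.34 (adjusted p = 0.0209) and -1.61 ± 0.34 (adjusted p = 0.0153). Control libraries held 649.6 to 1121 CPM of Txnip, against 264 to 308, 211 to 629.6 and 233 to 433 CPM, so that the groups did not overlap. Tsc2, a brake on mTORC1, fell on RMA-KR day 14 with a log2 fold change of -1.13 ± 0.25 (adjusted p = 0.0200), its levels being 123 to 130.5 CPM in controls and 44.6 to 66.9 CPM there. On RMA-KR day 7 none of the 22 passed, with Myc at 74.2 to 138 CPM, and Hif1a, which activates glycolytic genes in low oxygen, had log2 fold changes of 0.67 ± 0.20 (adjusted p = 0.0806) on RMA day 4, 0.23 ± 0.20 (adjusted p = 0.696) on RMA day 9 and 0.40 ± 0.20 (adjusted p = 0.359) on RMA-KR day 14.

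Serine synthesis leaves glycolysis at 3-phosphoglycerate. Of 23 tested genes of the glycogen, hexosamine, serine and nucleotide branches, Phgdh and Psat1, the first enzymes of serine synthesis, were the only ones called in any comparison with control. Psat1 rose by 2.08 ± 0.30 (adjusted p = 0.000356) on RMA day 4 and by 1.56 ± 0.30 (adjusted p = 0.00401) on RMA day 9 on the log2 scale, with 41.7 to 63.1 CPM in controls against 177 to 253 and 121 to 165 CPM. Phgdh rose by 1.70 ± 0.35 (adjusted p = 0.00824) and 1.54 ± 0.35 (adjusted p = 0.0151), with 17.4 to 22.8 CPM in controls against 48.6 to 89.2 and 33.1 to 84.8 CPM. Psat1 also rose from day 2 to the last day in both models, by 1.63 ± 0.32 in RMA (edgeR adjusted p = 0.00817) and 1.65 ± 0.32 in RMA-KR (0.0269). Phgdh was called over time in RMA (1.77 ± 0.39, edgeR adjusted p = 0.0146) but not in RMA-KR. Of 9 tested genes of the shuttles that carry NADH electrons into mitochondria, Got2 rose on RMA day 4 by 1.06 ± 0.28 (adjusted p = 0.0393) and Mdh1 on RMA day 9 by 0.84 ± 0.17 (adjusted p = 0.00729). None of the 11 tested genes of pyruvate entry into mitochondria and none of the 11 tested other isoenzymes and carriers passed against control in any group.

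Other gene lists were read beside the glycolytic genes in the same libraries. The 32 genes of S phase and G2/M had 28 called higher on RMA day 4, 23 on RMA day 9, 18 on RMA-KR day 14 and 0 on RMA-KR day 7 and both day 2 groups. Their sums were 1355 to 1889 CPM in controls, 7493, 11239.6 and 9062 CPM on RMA day 4, 8029, 9933 and 5212 CPM on RMA day 9 and 4971, 8528 and 4454 CPM on RMA-KR day 14. On RMA-KR day 7 the sums were 2016, 2281, 4747, 2546 and 3816 CPM, all above the controls. On RMA day 2 they were 1272, 3360 and 3007 CPM, and on RMA-KR day 2 they were 1780 to 1999 CPM. Glycolysis sums on RMA day 2, at 2049.7, 2209 and 2050.1 CPM, stayed within the controls, although libraries 2 and 3 exceeded them in cell cycle genes. Glycolysis genes summed to 1979.98 to 2382 CPM in controls, 2998, 3534 and 3369 CPM on RMA day 4, 3410.4, 3233 and 3030.4 CPM on RMA day 9 and 3016, 2961 and 2288 CPM on RMA-KR day 14. RMA day 4 and day 9 had the highest group means of both lists. Of 12 interferon-induced genes, 4, 5 and 1 were called higher on RMA day 4, RMA day 9 and RMA-KR day 14, with sums of 331 to 516 CPM in controls and 1240.05 to 1425, 886 to 1447 and 513 to 731 CPM. Pentose phosphate genes summed to 592 to 876 CPM in controls, 1248 to 1349 CPM on RMA day 4 and 1087 to 1216 CPM on RMA day 9, and glucose carriers to 253 to 422 CPM in controls and 339.8 to 408 and 267 to 367 CPM. T cell and RMA lineage genes, for comparison, stood at 461 to 585 CPM in controls, 419.5 to 466 CPM on RMA day 4 and 577 to 748 CPM on RMA day 9. The part of the share of dividing cells in the levels of the glycolytic genes was not tested.

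**Figure D4:**
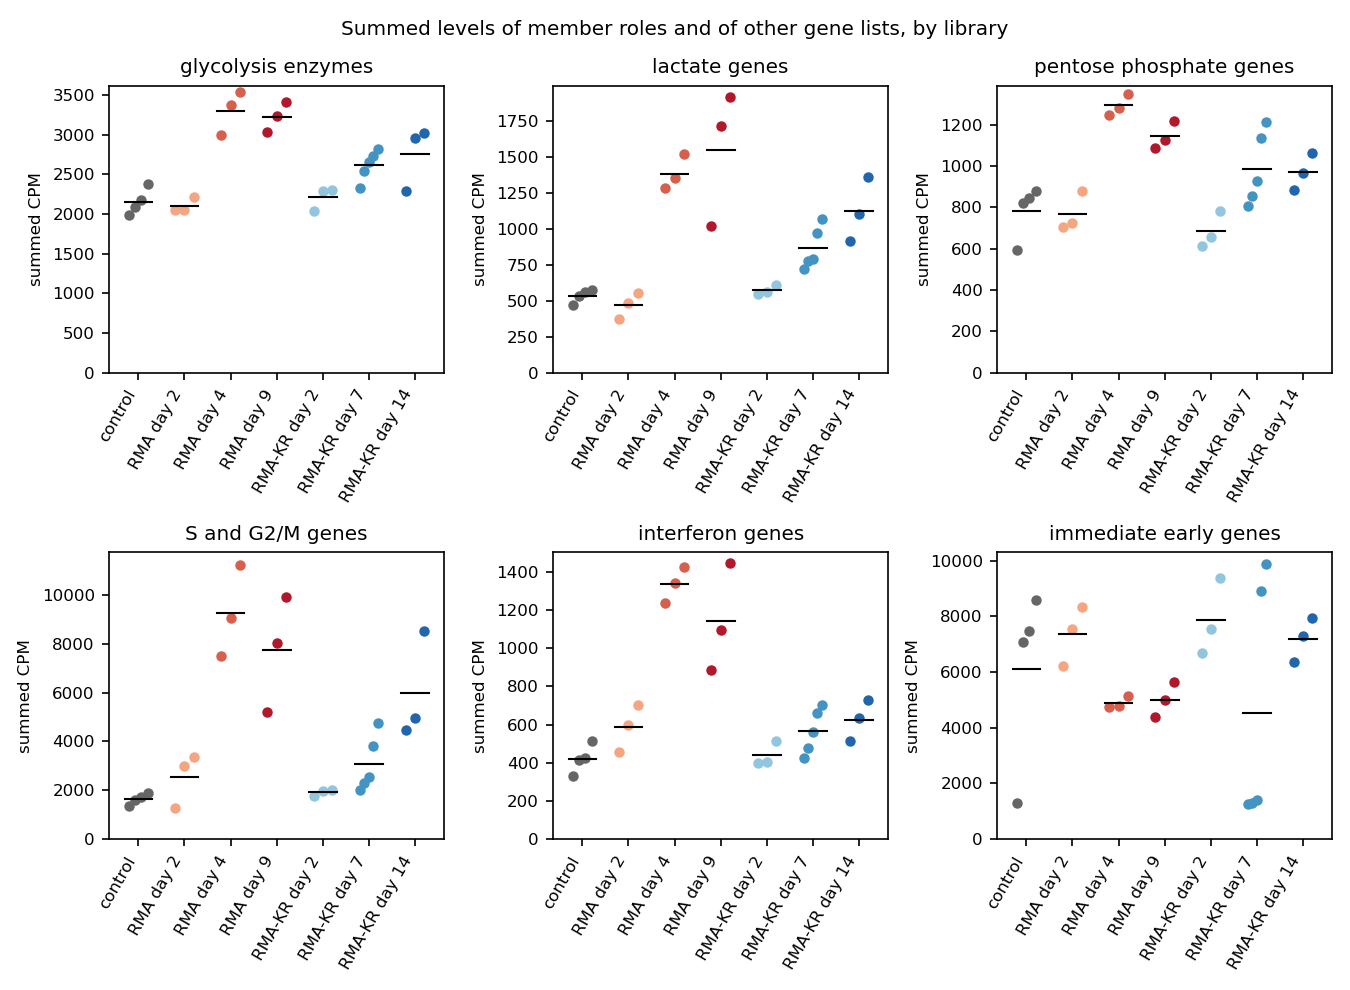
Summed levels (TMM-normalized CPM, 1 point per library, line at the group mean) of 6 gene lists in the 7 groups: glycolysis, lactate, pentose phosphate, S and G2/M, interferon and immediate early genes. Group means of the glycolysis, pentose phosphate and cell cycle sums are highest on RMA day 4 and day 9, and the immediate early panel shows the 4 low libraries of control and RMA-KR day 7.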

How the data were processed

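NK cells from 24 samples were profiled as single 50-base reads of mRNA libraries (Lexogen kit V2). The authors deposited raw counts per gene, made, per the submitters' processing notes and methods, by trimming (cutadapt 1.10), removal of ribosomal reads (Bowtie2 2.2.8), alignment to mm10 (STAR 2.5.3a) and counting in union mode on Ensembl genes (HTSeq 0.6.1p1). The deposited table also holds 48 other per-library columns and 29 columns of the authors' own comparisons (fold changes and p-values made with DESeq2 1.16.1), which were not used. All 24 libraries were fitted with 1 mean for each of 7 groups by edgeR's quasi-likelihood test (edgeR 4.0.16, limma 3.58.1, R 4.3.3) with TMM normalization, edgeR's default filter on low counts and robust fitting, and p-values were adjusted by Benjamini-Hochberg over all 17097 genes tested. A call is an adjusted p under 0.05, and an error after ± is 1 standard error. The procedure was tested on simulated data.

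Per-library values are printed for members called in at least 1 comparison, for the most abundant member of each role and, with their values known, for Gapdh, Pfkl, Slc16a3, Pdk2 and Pfkfb4. Genes of the neighbour lists are named if called in a comparison with control, and the others are mostly only counted. 1 marker list is not reported here. Members and lists were chosen with earlier results of these data known. Libraries differed beyond sampling noise within each group (chi-square per degree of freedom 18.1 to 104 over 31 pairs), so none was counted as a repeat run of another. This cannot show that libraries came from separate mice, since separate libraries of 1 mouse could differ as well. Transcript lengths, coordinates and the 50-base windows came from GENCODE M21 (GRCm38), and promoters from RefSeq (GRCm38.p6). The alternatives were other scaling, filters, samples, tools (DESeq2 1.42.0 with and without its fold change prior), a replicate block and leaving out libraries. Tables and plots used Python 3.11.15, pandas 2.3.3, numpy 2.4.6 and matplotlib 3.10.9.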

Additional observations from a re-analysis of the deposited data

Results flagged for a closer look

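In 3 of 68 pairs of a gene and a group of 4 or 5 libraries, 1 library lay so far from the others that its gap to the nearest, divided by the group's range, exceeded Dixon's 95% value for its size. Chance flags about 1 in 20 such pairs. Pdk2 was at 20.3 CPM in control 3, while the other controls had 45.1 to 48.7 CPM. Eno3 was at 21.3 CPM in RMA-KR day 7 library 1, with 3.42 to 8.37 CPM in the rest of that group. Taldo1 was at 244 CPM in RMA-KR day 7 library 2, and the others of the group stood at 189 to 202 CPM.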

How the results depend on the processing

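Over the fold changes of 9 called members on RMA day 4, RMA day 9 and RMA-KR day 14 and of the members called over time within a model, which cover 5 of the 10 comparisons, 449 results of an alternative kept their direction and their side of the threshold, 33 newly passed it, 69 no longer passed it and 1 reversed. With a fold above 2 also required, 2 members passed on RMA day 4, 1 on RMA day 9 and 2 between RMA day 9 and day 2. No count over all genes is at hand for this rule, so it shows nothing particular to the members. In the rest of this paragraph the number of all genes called is given in parentheses after a count of members. With no filter on low counts 1 member passed on RMA-KR day 7 (Ldha, among 79 genes) and 1 between RMA and RMA-KR on day 2 (Pdk1, lower in RMA, among 214 genes). With 10 counts or more required of each library, a filter that leaves fewer genes to adjust for (23 members tested), 8 passed on RMA day 9 (644 of all genes) and 2 on RMA-KR day 14 (300, against 208 in the main fit). Fitting only the groups compared gave 13 on RMA day 4 (1246 of all genes, against 401 in the main fit), 8 on RMA day 9 (811, against 455), 0 between RMA day 9 and day 2 (1, against 491) and 0 between RMA-KR day 14 and day 2 (2, against 67). DESeq2 called 9 members on RMA day 4 (939 of all genes), 9 on RMA day 9 (1034), 2 on RMA-KR day 7 (61, against 3), 4 on RMA-KR day 14 (665) and 4 between RMA-KR day 14 and day 2 (573). With its fold change prior it called 8 (853), 9 (1011), 2 (68), 4 (586) and 4 (431). Without the 4 libraries low in immediate early genes 4 passed between RMA day 9 and day 2 (402). Without the 3 libraries apart on principal components 9 passed on RMA day 9 (577), 1 between RMA day 9 and day 2 (5) and 2 between RMA-KR day 14 and day 2 (129). Both of these were chosen after seeing the data, and the lone RMA day 2 library that the second leaves is assumed to vary like the other groups. DESeq2's size factors in the edgeR fit moved no count of members by over 1.5 times. Among all genes, those called on RMA-KR day 2 went from 17 to 8. Some alternatives also called members lower: Pdk2 on RMA day 9 (the 10-count filter, only the groups compared, both DESeq2 fits and without the 3 libraries) and on RMA day 4 (only the groups compared and both DESeq2 fits), Pfkfb4 on RMA day 4 (no filter, only the groups compared and DESeq2 without its prior) and Hk2 between RMA day 9 and day 2 (DESeq2 without its prior). The cause of these changes was not tested.

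Leaving out 1 library in turn gave 2 to 5 members on RMA day 9 (2 without control 1, control 4 or RMA day 9 library 1) and 1 to 5 between RMA day 9 and day 2 (1 without RMA day 2 library 1 or RMA day 9 library 2, 2 without RMA day 9 library 1, 4 without RMA day 9 library 3). It gave 0 to 2 between RMA-KR day 14 and day 2 (0 without RMA-KR day 2 library 1 or 2 or RMA-KR day 14 library 2, 2 without RMA-KR day 14 library 3), 0 to 1 on RMA day 2 and 0 to 1 between the models on day 2 (1 each without RMA day 2 library 3, Slc16a3 lower there). On RMA day 4 the count was 3 to 5, on RMA-KR day 14 it was 1 and on RMA-KR days 2 and 7 it was 0. In these fits all genes called ran from 143 to 581 on RMA day 9, 92 to 653 between RMA day 9 and day 2 and 14 to 57 between RMA-KR day 14 and day 2. They ran from 0 to 88 on RMA day 2, 8 to 198 between the models on day 2, 191 to 277 on RMA day 4 and 82 to 181 on RMA-KR day 14. On RMA-KR days 2 and 7 they reached at most 13 and 4. A library left out of the smallest group also changes the filter, so that 36 or 37 members are tested. Taldo1 on RMA-KR day 14 reversed to a log2 fold change of -0.052 without RMA-KR day 14 library 2, in a range of -0.052 to 0.40 around 0.14, and was never called.

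Ldha passed in every fit against control on RMA day 4 (adjusted p 1.31e-12 to 0.00171), RMA day 9 (1.13e-15 to 0.00245) and RMA-KR day 14 (1.19e-07 to 0.0234). Pkm did so on RMA day 4 and RMA day 9, with adjusted p up to 0.0344 and 0.0490 when 1 library was left out.

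With the replicate number as a replicate block, 3 members passed on RMA day 9 (Pkm, Ldha and Eno1), so that Pfkp and Tpi1 lost their calls. All genes called there went from 455 to 289. The other counts of members moved by less than 1.5 times. Counts of all genes fell from 208 to 117 on RMA-KR day 14, from 58 to 19 between the models on day 2 and from 17 to 0 on RMA-KR day 2. Deviations of libraries of the same number in different groups were correlated at -0.12 to 0.20. The numbers are thus not shown to pair the samples, and so few libraries per group cannot exclude a pairing.

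Members with few counts, such as Hk2, Pfkfb2, Pfkfb4, Aldoc, Slc16a3 and Rpia, have folds that this depth leaves imprecise, and Eno2 and Ldhb were too low to test. Groups of 3 libraries leave wide intervals, so a missed threshold does not show equal levels. Intervals and floors cover what was counted in these libraries only. Tumor and day cannot be told apart after day 2.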
